A study of Mus musculus with 2 samples.

Results

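The genes described here encode the receptor chains of the common gamma-chain cytokine family: Il2ra, Il2rb, Il2rg, Il4ra, Il7r, Il9r, Il15ra and Il21r. They were taken by gene symbol, by a rule that sets no threshold on measured values, though earlier results of these data were known when the family was chosen. All 8 were found among the 23337 symbols of the deposited count table. The RNA came from regulatory T (Treg) cells, the CD4 T cells that express Foxp3 and restrain immune responses, sorted from skeletal muscle of male mice aged 8 weeks on a C57BL/6 background with the Foxp3-IRES-GFP reporter, in which cells that express Foxp3 also make a green fluorescent protein. In all mice, leg muscles were injured with cardiotoxin, which kills muscle fibres. They received either 0.3 ug of recombinant IL-33 (the IL-33 library) or PBS (the PBS library) into the muscle, and 5000 Treg cells were collected for each library 4 days after injury. The number of mice behind each library is not given in the sources used here.

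The common gamma chain, encoded by Il2rg, is a signalling subunit shared by the receptors for IL-2, IL-4, IL-7, IL-9, IL-15 and IL-21. Each receptor adds its own chain or chains: IL-2 and IL-15 share the beta chain Il2rb and differ in the alpha chain, Il2ra or Il15ra, whereas Il4ra, Il7r, Il9r and Il21r each pair with the common chain for the cytokine of that name. JAK1 and JAK3 bind the receptor tails and phosphorylate STAT factors, mainly STAT5 for IL-2, IL-7 and IL-15 and STAT6 for IL-4. Treg cells carry high Il2ra and depend on IL-2 made by other cells. IL-33 signals through a receptor of another family, which leads to NF-kB.

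With 1 library per treatment there was no replicate check and no test was possible. "After IL-33" and "after PBS" below name these libraries, and "higher" and "lower" compare them rather than the treatments. Depth differed 2.59-fold, with 4080791 counts after IL-33 and 1573707 after PBS. Levels are given in CPM, a gene's share of its library's counts on a scale of 1000000. Intervals are exact 95% intervals of counting error alone. The amplified reads carried no molecular identifiers that the labels name, so the intervals miss amplification error, as well as variation between mice. A count of 0 allows up to 3 counts, which is 0.735 CPM after IL-33 and 1.91 CPM after PBS. In RNA from bulk sorted cells, fewer cells that express a gene and less of its RNA per cell cannot be told apart.

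Of the 8 receptor genes, 6 lay within 2-fold between the libraries, 2 were at least 2-fold higher after IL-33 and 0 were at least 2-fold lower. The higher genes, Il9r and Il15ra, were thinly counted and had 0 counts after PBS. They passed the floor of 5 CPM in at least 1 library only through the IL-33 library. Among all 9005 genes over that floor, 15.5% were at least 2-fold higher and 16.3% at least 2-fold lower. Of the 1928 of them that averaged under 10 CPM, as Il9r and Il15ra did, 37.2% were at least 2-fold higher. The median log2 fold of the 8 genes, taken on CPM plus a pseudocount of 1, was -0.20, against -0.08 over all genes. Placing Il9r and Il15ra at their lower bounds cannot move this median, because they remain the highest of the 8. For the 6 genes counted in both libraries it was -0.21.

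**Figure D1:**
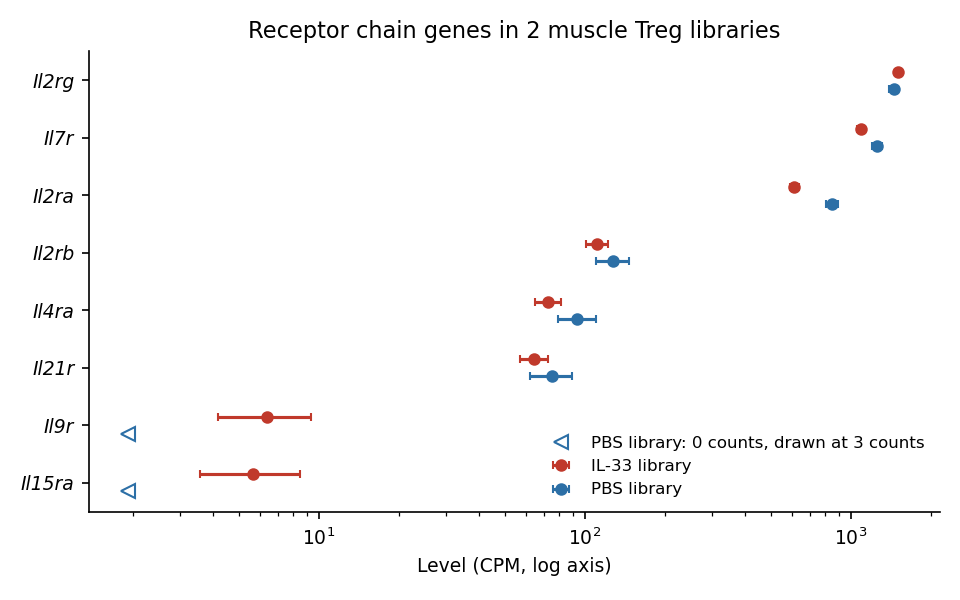
Level of each receptor gene in CPM (horizontal log axis) after IL-33 (red) and the PBS library (blue), with exact 95% Poisson intervals of counting error; open triangles mark 0 counts and are drawn at 3 counts. Il2rg, Il7r and Il2ra stand above 600 CPM in both libraries, and Il9r and Il15ra were counted after IL-33 only.

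The IL-2 receptor chains did not differ alike. Il2ra, the alpha chain that raises affinity for IL-2 (chr2:11642807-11693193, GRCm38, plus strand), had 2502 counts after IL-33 and 1339 after PBS. These are 613 CPM (589 to 638) and 851 CPM (806 to 898). Il2ra was thus lower after IL-33, with Poisson intervals that do not overlap and a ratio of IL-33 to PBS of 0.721 (0.674 to 0.771). Among the 990 genes that averaged at least 200 CPM, 13.3% had a log2 fold at or below that of Il2ra, -0.47.

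Il2rb, the beta chain that carries the signal of IL-2 and IL-15 (chr15:78479256-78495271, minus strand), was at 111 CPM (101 to 122) and 127 CPM (110 to 146). Its ratio was 0.873 (0.738 to 1.04), within counting error of 1. Il2rg, the common chain (chrX:101264378-101268255, minus strand), had 6149 and 2281 counts, the most of the family. It was at 1507 CPM (1469 to 1545) after IL-33 and 1449 CPM (1391 to 1510) after PBS. The ratio of Il2rg was 1.04 (0.991 to 1.09), also within counting error. Its direction was not settled: with trimmed mean of M-values (TMM) scaling it was 1.13 (1.08 to 1.19), while its log2 fold centred on genes of like transcript length was -0.01.

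Il7r, the alpha chain for IL-7 and a chain of the receptor for TSLP (chr15:9505788-9530176, minus strand), had 4446 and 1970 counts. It stood at 1089 CPM (1058 to 1122) after IL-33 and 1252 CPM (1197 to 1308) after PBS, a ratio of 0.870 (0.825 to 0.918). High Il7r is known from naive and memory T cells more than from Treg cells. The 5 markers of naive and memory T cells reported here summed to 410 CPM after IL-33 and 606 CPM after PBS. Of these markers, 3 were at least 2-fold lower after IL-33, against 16.3% of all genes over the floor. The 3 lower markers were Klf2, a factor of quiescent T cells, at 95.3 against 212 CPM, Ccr7, a homing receptor, at 30.6 against 89.0 CPM, and Tcf7, a factor of naive and memory T cells, at 1.23 against 6.99 CPM. Tcf7 passed the floor only through the PBS library. S1pr1, an exit receptor, stood at 232 against 264 CPM, and Lef1, a factor related to Tcf7, ran the other way with 209 and 52 counts, a ratio of 1.55 (1.14 to 2.14). The part of such cells in the level of Il7r was not tested.

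Il4ra and Il21r lie side by side on chromosome 7 with 24.0 kb and 0 protein-coding genes between them. Il4ra, the chain that binds IL-4 and also serves IL-13 (chr7:125552120-125579474, plus strand), had 297 and 147 counts. It was at 72.8 CPM (64.7 to 81.5) after IL-33 and 93.4 CPM (78.9 to 110) after PBS, a ratio of 0.779 (0.637 to 0.956). With TMM scaling that interval held 1, at 0.693 to 1.04. Il21r, the chain that binds IL-21 (chr7:125603429-125633570, plus strand), was at 64.4 CPM (56.9 to 72.7) and 75 CPM (62.1 to 89.8), a ratio of 0.860 (0.689 to 1.08).

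Both thinly counted receptors appeared in the deeper library alone. Il9r, the chain that binds IL-9 (chr11:32187541-32200279, minus strand), had 26 counts after IL-33, or 6.37 CPM (4.16 to 9.34), and 0 after PBS. Set against 3 counts after PBS it was 3.34-fold higher, and the exact interval of the ratio began at 2.53. Il15ra, the alpha chain for IL-15 (chr2:11705290-11734317, plus strand), had 23 counts, or 5.64 CPM (3.57 to 8.46), and 0 after PBS. Set against 3 counts after PBS it was 2.96-fold higher, with an exact interval from 2.22. At equal levels, the PBS library would have held 10.03 counts of Il9r and 8.87 of Il15ra. Zeros of this kind were common: of the 736 genes with 20 to 30 counts after IL-33, 26.6% had 0 after PBS. Il15ra begins 12.1 kb downstream of Il2ra on chromosome 2 with 0 protein-coding genes between them, yet these neighbours lay on opposite sides of 1.

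**Figure D2:**
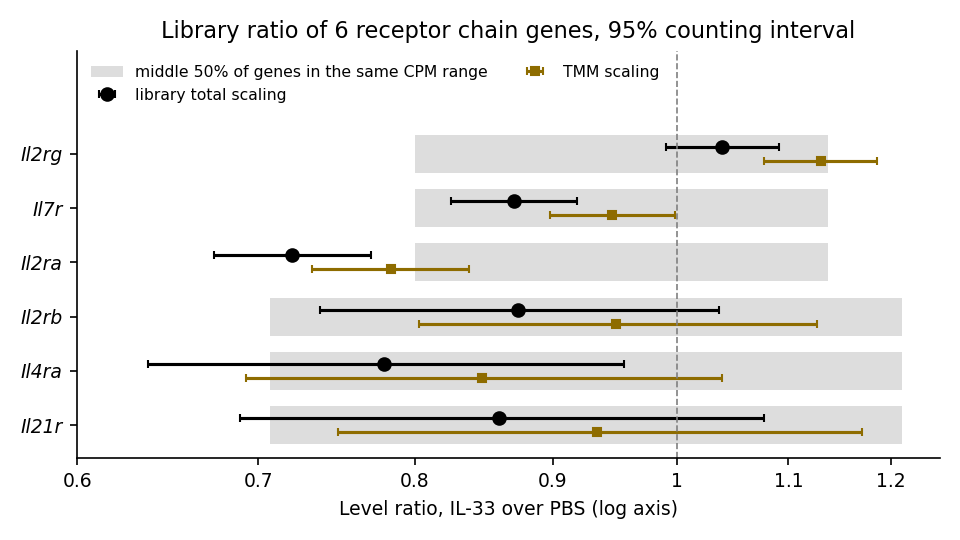
Ratio of the IL-33 to the PBS library (horizontal log axis) for the 6 receptor genes counted in both, with exact 95% counting intervals under library total scaling (black) and TMM scaling (brown); grey bars span the middle 50% of genes in the same range of mean CPM (200 or more, or 50 to 200) under library total scaling. Il2ra, at 0.721, is the only black point left of its grey bar, and Il2rg is the only gene right of 1.

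Among the 6 genes counted in both libraries, the ratio was below 1 for 5, all but Il2rg, under library total scaling and each of the 4 other scalings tried. Of all genes over the floor, 54.4% had a lower CPM after IL-33. The counting interval lay wholly below 1 for Il2ra, Il4ra and Il7r, as it did for 35.1% of all genes. Under TMM, median ratio and upper quartile scaling it did so for Il2ra and Il7r, and with the total without the 10 highest genes for Il4ra too. The interval of Il2rg lay above 1 under all 4 of these scalings, at 1.01 to 1.11 under the last. TMM adds 0.12 to the log2 of every ratio of CPM, and less to the log2 fold of low genes, which carries the pseudocount. The summed counts of the 8 receptor genes gave a ratio of 0.902 (0.875 to 0.929), which became 0.981 (0.951 to 1.01) with TMM.

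Ratios between chains within a library do not depend on scaling, but a trend with transcript length between the libraries enters them. Among genes over the floor grouped by length, the median log2 fold fell from 0.07 in the group of Il2rg to -0.13 in that of Il2ra and Il4ra. The ratio of Il2ra to Il2rg counts was lower after IL-33, at 0.693 times that after PBS (0.638 to 0.753). Il2ra was also lower relative to Il7r, at 0.828 (0.760 to 0.902), and relative to Il2rb, at 0.825 (0.686 to 0.990). Relative to Il4ra, at 0.925 (0.745 to 1.14), and to Il21r, at 0.838 (0.662 to 1.06), its difference was within counting error.

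Il2rg was higher relative to Il7r, at 1.19 (1.11 to 1.28), and to Il4ra, at 1.33 (1.08 to 1.64). Centred on genes of like transcript length, log2 folds were -0.01 for Il2rg, -0.08 for Il7r, -0.23 for Il4ra and -0.34 for Il2ra. Centring thus narrowed the differences of Il2rg from these genes, which the intervals of the pairs do not take into account. Il2rb kept step with Il7r, at 1.0 (0.841 to 1.2), and with Il21r, at 1.02 (0.765 to 1.35), although these intervals allow differences of up to 1.35 times. In all, 5 of the 15 pairs of these 6 genes were apart by the exact interval, and 6 (40.0%) by the Woolf interval. Among all pairs of the 3566 genes that averaged at least 50 CPM, a larger share, 65.3%, was apart by the Woolf interval.

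**Figure D3:**
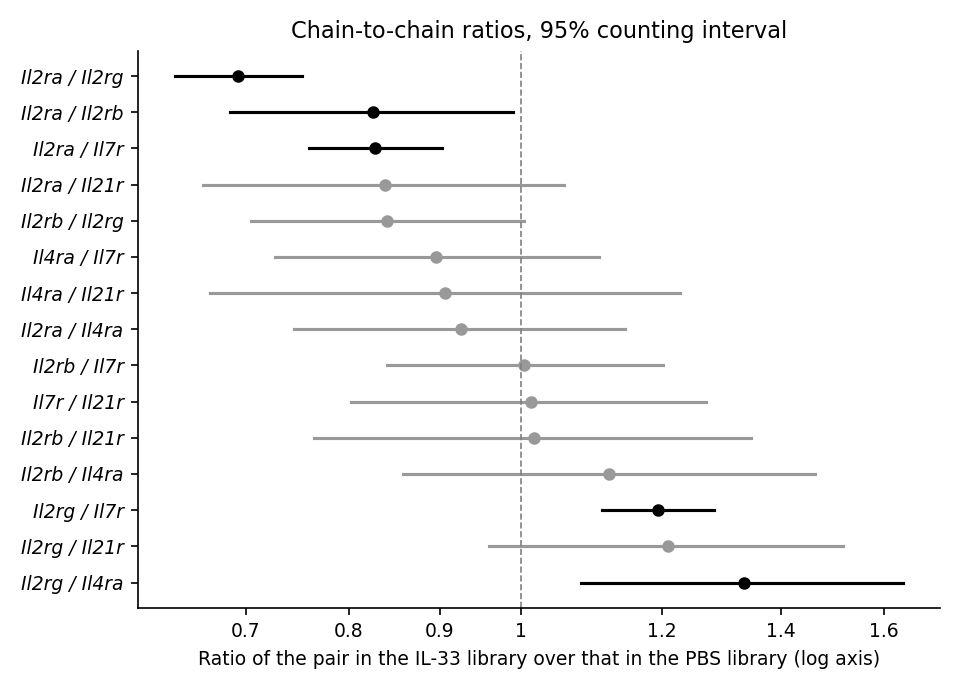
For each of the 15 pairs of receptor genes counted in both libraries, the ratio of the first to the second gene after IL-33 over the same ratio after PBS (horizontal log axis), with exact 95% counting intervals; black marks intervals that leave out 1. Il2ra over Il2rg is lowest at 0.693 and Il2rg over Il4ra highest at 1.33.

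To compare genes with each other, counts were divided by the length of the merged exons and scaled by their sum over all genes (TPM). The order was the same in both libraries for the 6 genes counted in both: Il2rg, Il7r, Il2ra, Il2rb, Il21r and Il4ra. In the IL-33 library these stood at 1951, 722, 332, 80.0, 59.9 and 37.5 TPM, and after PBS at 2051, 907, 503, 100.1, 76.2 and 52.6 TPM. Each neighbour in this order differed from the next beyond counting error. Il9r and Il15ra, at 3.98 and 3.92 TPM after IL-33, did not differ from each other, with a ratio of 1.02 (0.557 to 1.86).

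By this measure Il2rg stood above each of its partner chains. It made up 61.2% of the summed per-length level of the 8 genes after IL-33 and 55.6% after PBS. Il2ra made up 10.4% and 13.6%, and Il7r 22.6% and 24.6%. Il2ra exceeded its signalling partner Il2rb 4.15-fold (3.75 to 4.59) after IL-33 and 5.03-fold (4.33 to 5.86) after PBS. The step from Il2rb to Il21r rests on the length used: with the longest single transcript their ratio was 1.03 (0.880 to 1.2) after IL-33 and 1.01 (0.80 to 1.28) after PBS. With the median coding transcript, Il4ra moved from rank 6 to rank 4 in both libraries. That length is only 491 bases for Il4ra, against 5256 for its longest transcript and 6002 for its merged exons. TPM values here serve the order within a library. Between libraries they gave Il2rg a lower level after IL-33, where CPM gave a higher one, so its direction also rests on this choice.

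**Figure D4:**
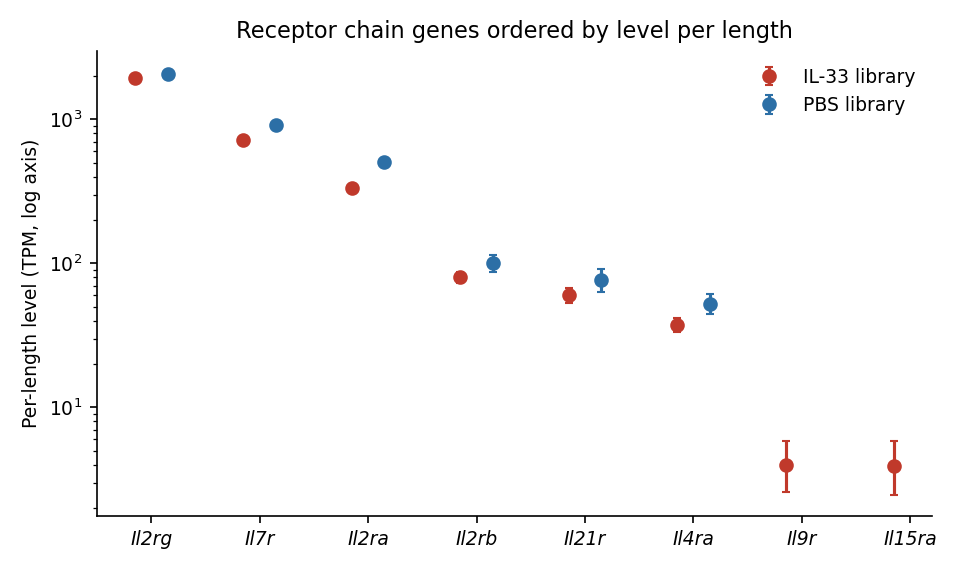
Level per length in TPM (vertical log axis) of each receptor gene after IL-33 (red) and the PBS library (blue), with exact 95% Poisson intervals; Il9r and Il15ra had 0 counts after PBS and have no blue point. The order runs from Il2rg, at 1951 and 2051 TPM, to Il4ra, at 37.5 and 52.6 TPM, among genes counted in both.

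The cytokines themselves were almost absent. Il2, Il4, Il9, Il13 and Tslp had 0 counts in both libraries, and Il7 and Il21 had 1 count after IL-33 and 0 after PBS. Il15, the ligand of Il15ra, was the exception, with 0 counts after IL-33 and 26 after PBS. This is 16.5 CPM after PBS. Set against 3 counts after IL-33, Il15 was 22.5-fold lower there, and the exact interval of the ratio of IL-33 to PBS ended at 0.0588. Only 3.63% of the 965 genes with 20 to 30 counts after PBS had 0 in the deeper IL-33 library. Il15 thus ran opposite to Il15ra.

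IL-15 is known mainly from myeloid and stromal cells. The fibroblast markers summed to 0 CPM after IL-33 and 66.1 CPM after PBS, with Col3a1, a collagen gene, at 0 and 49.6 CPM, Dcn, the proteoglycan decorin, at 0 and 15.3 CPM, and 3 of 6, Col1a1 among them, at 0 in both. The dendritic cell markers summed to 16.4 and 31.8 CPM, with H2-Ab1, an MHC class II chain, at 1.72 and 12.1 CPM, Xcr1, a chemokine receptor, at 10.3 and 7.63 CPM, and 3 of 7 at 0 in both. Itgax and Zbtb46 of the same list were chosen after their values were seen. Itgax had 0 and 19 counts, and Zbtb46, under the floor, ran the other way with 18 and 0. Of the 3 markers over the floor, H2-Ab1 and Itgax were at least 2-fold lower, against 16.3% of all genes. Both passed the floor only through the PBS library. Of the 9 monocyte and macrophage markers in the table, 3 passed the floor, all within 2-fold on CPM plus 1. Without the pseudocount, the ratio was 0.493 (0.348 to 0.701) for Lyz2 and 2.12 (1.14 to 4.31) for Itgam. With TMM, 1 of the 3 was at least 2-fold higher. The 9 summed to 50.7 and 55.9 CPM, led by Lyz2, lysozyme, at 19.1 and 38.8 CPM and Itgam, an integrin, at 16.2 and 7.63 CPM. The part of such cells in the levels of Il15, Il15ra and Il4ra was not tested. Mast cells and basophils are known for Il9r and Il4ra, and all 7 of their markers, Cpa3 and Fcer1a among them, had 0 counts in both libraries.

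Of the partner chains outside the family, Il13ra1, which joins Il4ra in the receptor for IL-13, had 4 and 19 counts, or 0.980 and 12.1 CPM, for a ratio of 0.0812 (0.0201 to 0.244). Crlf2, which joins Il7r in the receptor for TSLP, had 40 and 9 counts, a ratio of 1.71 (0.819 to 4.02). Il13ra2 had 0 counts in both.

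Among the JAK kinases and STAT factors, 8 of 9 genes lay within 2-fold and 1 was lower, as were 16.3% of all genes. Their median log2 fold was -0.16, against -0.08 over all genes. Jak1, which binds the ligand-specific chains, was at 888 and 1041 CPM, for a ratio of 0.853 (0.804 to 0.904). Jak3, which binds the common chain, was thinly counted, with 20 and 24 counts, and lower at 0.321 (0.168 to 0.607). Jak3 was the 1 gene lower at 2-fold, and it passed the floor only through the PBS library. The STAT5 genes split: Stat5b was at 177 CPM in both libraries, a ratio of 1.0 (0.870 to 1.15), while Stat5a was at 94.3 and 62.9 CPM, for a ratio of 1.5 (1.2 to 1.89). Stat6, the factor of the IL-4 receptor, was lower at 109 and 207 CPM, for a ratio of 0.529 (0.458 to 0.612), and Tyk2, a kinase of other cytokine receptors, stood at 0.655 (0.547 to 0.787). Stat6, Tyk2 and Stat5a did not reach 2-fold, which 10.9% of the 2576 genes between 50 and 200 CPM on average did.

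The adaptors and PI3 kinase genes had a median of -0.20, against -0.08 over all genes. Of all genes 16.3% were at least 2-fold lower, and of these 10 genes 9 were within 2-fold and 1 was lower. The latter was Irs2, an adaptor of the IL-4 receptor, with 5 and 16 counts. Irs2 passed the floor only through the PBS library. Lck, the T cell kinase and the highest of the list in CPM, was at 478 and 546 CPM. Pik3cd, the leukocyte PI3 kinase, stood at a ratio of 0.624 (0.559 to 0.696), Grb2 at 0.705 (0.615 to 0.809) and Sos1, the exchange factor that Grb2 recruits, at 1.43 (1.11 to 1.87).

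Feedback inhibitors of the receptors were lower in CPM after IL-33 in 6 of 7 genes over the floor, against 54.4% of all genes, with 0 past 2-fold and a median of -0.35. The counting interval left out 1 for only 3 of the 7, as it did for 63.7% of all genes. Cish, an early STAT5 target that restrains the IL-2 receptor, was at 521 and 956 CPM, for a ratio of 0.545 (0.510 to 0.582). Among those 990 genes, 1.62% had a log2 fold at or below that of Cish. Socs2, a STAT5 target of the same family, was at 82.3 and 144 CPM, for a ratio of 0.571 (0.481 to 0.679). Ptpn2, a phosphatase of JAK1 and JAK3, stood at 0.784 (0.670 to 0.921), and Socs3, with 42 and 23 counts, at 0.704 (0.414 to 1.23).

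The 15 STAT5 targets had a median of -0.53, with 10 of 15 lower in CPM, 2 of them lower at 2-fold and 3 higher at 2-fold, against 54.4%, 16.3% and 15.5% of all genes. The lower genes were the cytokine genes Lif, with 0 and 23 counts, and Osm, at 0.294 (0.143 to 0.591). The higher were the survival gene Bcl2, with 61 and 0 counts, Foxp3, with 40 and 1 counts, and the growth regulator Myc, at 2.34 (1.59 to 3.54), the last chosen after its values were seen. Bcl2 and Foxp3 passed the floor only through the IL-33 library, and Lif and Osm only through the PBS library. Ccnd2, a cyclin gene and the highest target in CPM, was at 841 and 1029 CPM. With TMM the medians were -0.08 for the receptor genes, -0.04 for kinases and STAT factors, -0.08 for adaptors, -0.23 for feedback inhibitors and -0.41 for STAT5 targets, against 0.05 for all genes. Of the 7 STAT6 targets, 3 passed the floor: Gfi1, a repressor, at 2.24 (1.13 to 4.91), Nfil3, a transcription factor, at 1.66 (1.29 to 2.15), and Gata3, the type 2 factor, at 0.795 (0.713 to 0.887).

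**Figure D5:**
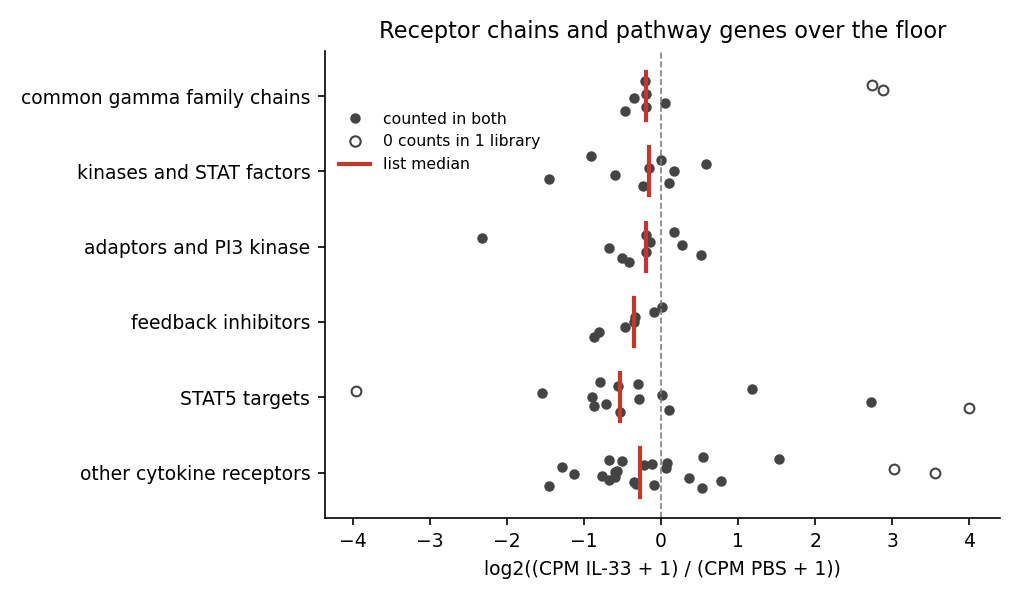
log2 fold of IL-33 over PBS on CPM plus 1 (horizontal axis) for each gene over the floor in the receptor family and 5 related lists; open points had 0 counts in 1 library, so their position depends on the pseudocount, and red bars are list medians. Medians run from -0.16 for kinases and STAT factors to -0.53 for STAT5 targets.

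Of the 24 genes over the floor in the list of cytokine receptors of other families, 18 were within 2-fold, 3 higher and 3 lower. A lower CPM after IL-33 was found for 15, and the median was -0.27. Among all genes 15.5% were higher, 16.3% lower and 54.4% lower in CPM, with a median of -0.08. The higher genes were Il23r, with 44 and 0 counts, Il17rb, with 29 and 0 counts, and Ebi3, which encodes a cytokine subunit and not a receptor, at 3.09 (1.76 to 5.82). Il23r and Il17rb passed the floor only through the deeper IL-33 library. The lower included Il1r1, an IL-1 receptor, at 0.350 (0.249 to 0.492). Ifngr1, an interferon-gamma receptor chain and the highest in CPM, was at 1629 and 1553 CPM, for a ratio of 1.05 (1.0 to 1.1).

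Among the 12 genes of this list that averaged at least 50 CPM, the nearest in log2 fold over the 2 libraries were Tgfbr2 (-0.51) and Il18r1 (-0.35) to Il2ra (-0.47). Il18r1 and Ifnar1 (-0.22) were nearest to Il4ra (-0.36). Ifngr1 (0.07) and Tgfbr1 (0.08) were nearest to Il2rg (0.06). Ifnar1 and Il1r2 (-0.09) were nearest to Il7r (-0.20), Il2rb (-0.19) and Il21r (-0.22).

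The sorted population was checked against its markers. Of the 12 Treg identity genes, 11 were within 2-fold and Foxp3 was higher. Foxp3 passed the floor only through the IL-33 library. With TMM, 2 of the 12 were at least 2-fold higher. Among all 9005 genes over the floor, 6140 were within 2-fold and 15.5% were at least 2-fold higher. Ctla4, an inhibitory receptor, was at 6186 and 6246 CPM, Itgae, an integrin chain, at 414 and 550 CPM, Lrrc32, the TGF-beta docking receptor, at 42.1 and 71.2 CPM, and Ikzf4, a transcription factor, at 33.8 and 17.8 CPM. Foxp3, the defining gene, had 9.80 CPM after IL-33 and 0.635 CPM after PBS, the latter from 1 count and under the 1.91 CPM that a count of 0 allows, so it was not shown to be present in the PBS library. All 8 T cell markers in the table were within 2-fold, with Cd4 at 543 and 526 CPM, Cd3g at 1341 and 1165 CPM and Cd2 at 1020 and 897 CPM. The lowest was Cd3e, chosen after its values were seen, at 18.9 and 12.1 CPM, from 77 and 19 counts. Cd8a had 0 counts in both and Cd8b1 was at 21.6 and 13.3 CPM. Markers of B cells summed to 30.9 and 25.4 CPM (mostly Cd79b, with Cd79a at 0.735 and 1.27 CPM), NK cells to 2.70 and 0 CPM (Gzma and Eomes), neutrophils to 18.6 and 32.4 CPM (Cxcr2 and Csf3r), endothelial cells to 49.3 and 52.1 CPM (mostly Pecam1, which leukocytes also express, with Cdh5 at 0.735 and 6.99 CPM) and muscle to 0.245 and 1.91 CPM (Acta1 and Myh4).

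The promoter windows of the receptor genes were searched for letters that STAT factors and NF-kB are known to bind, since the first carry the signal of these receptors and the second that of IL-33. RefSeq windows on GRCm38.p6, from 250 bases before to 50 bases after a start site, were held for 7 of the 8 genes (8 windows); Il2rb was not matched. Motifs were TTCNNNGAA for STAT5 and TTCNNNNGAA for STAT6, each its own reverse complement, and the NF-kB consensus, searched on both strands. Il2ra is shown as the well-counted gene farthest from 1, Il7r and Il4ra as the other members with a match, and Cish as the feedback gene farthest from 0. Lines run 5′ to 3′ on the gene's strand, and capitals mark the matches.
Il2ra, upstream bases, chr2:11642542-11642791, plus strand: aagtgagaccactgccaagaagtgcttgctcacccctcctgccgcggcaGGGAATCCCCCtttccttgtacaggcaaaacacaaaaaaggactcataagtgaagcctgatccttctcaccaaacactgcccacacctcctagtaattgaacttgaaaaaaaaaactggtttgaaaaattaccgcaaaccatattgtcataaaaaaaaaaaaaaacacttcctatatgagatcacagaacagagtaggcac
Il7r, chr15:9529994-9530023, minus strand: ggagcTTCAGGGAAtaccaagatgcaggaa
Il4ra, chr7:125552286-125552315, plus strand: tcgcaGGAAAGCCCCgcgcggcgcgtggag
Cish, chr9:107296654-107296683, plus strand: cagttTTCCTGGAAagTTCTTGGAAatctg

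The Il2ra window held 2 overlapping NF-kB matches, beginning 201 and 200 bases before the start, and no STAT match. The Il4ra match was also to NF-kB, from base 21 after the start, and the Il7r match was to STAT5, 142 bases before it. The Cish window held 2 STAT5 matches, at bases 1 and 12 after the start. The windows of the STAT5 targets Pim1 and Bcl2 were also searched and held no match. Socs2 was not matched to a window. The windows of Il2rg, Il9r, Il15ra and Il21r held none of these letters. Of all 32851 windows of this length, 8.30% held the STAT5 letters, 6.95% the STAT6 letters and 4.51% the NF-kB consensus. A match is a description of the sequence and not a measured site of binding.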

How the data were processed

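The authors deposited 1 table of raw counts, with a row for each gene symbol and a column for each library. TopHat2 2.0.10, Cufflinks 2.2.1 and the mm10 build are named in the submitters' processing notes. The sources used here do not give the counting program, the annotation or the use of strand, so reads of overlapping genes, such as the antisense gene over Il4ra and another gene model over Il2rg in GENCODE, could be shared. CPM was computed as the count over the library total. A gene was compared at 5 CPM or more in at least 1 library, and called at 2-fold on log2(CPM + 1), which makes differences of low genes look smaller. Ratios carry the exact conditional (Clopper-Pearson) 95% interval, and levels the exact Poisson interval. Pairs of genes carry the exact conditional odds-ratio interval, and the background over all pairs the Woolf interval. Lengths and positions came from GENCODE M21 (GRCm38, the assembly that mm10 names), which matched 22875 symbols (98.0%). Gene lists covered ligands, partner chains, kinases and STAT factors, adaptors, feedback inhibitors, STAT5 and STAT6 targets, other cytokine receptors, Treg identity and markers of other cells. Named genes are the receptors, the ligands, the 4 members farthest from 0 and the highest in CPM of each list, the 2 highest of each marker list, and a few fixed genes. A marker gene in each of 2 lists, naive and memory T cells and B cells, is not reported here, and the sums leave it out. The receptors and lists were chosen with earlier results of these data known. The computation was tested on simulated data. Python 3.11.15, scipy 1.17.1, pandas 2.3.3 and R 4.3.3 with edgeR 4.0.16 (TMM factors alone) were used. 0 columns were left unused.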

Additional observations from a re-analysis of the deposited data

How the results depend on the processing

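With 1 library per treatment, the range between mice is unknown and depth limits Il9r and Il15ra most. At a floor of 20 CPM, 0 receptor genes were counted as higher in place of 2, because both are removed; under the other alternatives tried (4 scalings, pseudocounts of 0.5 and 5 CPM, no filter, centring on transcript length, a 1.5-fold threshold) 2 were higher and 0 lower. With TMM scaling the ratio was 0.784 for Il2ra, 1.13 for Il2rg and 0.946 for Il7r. With median ratio scaling it was 0.780, 1.12 and 0.942, and with upper quartile scaling 1.11 for Il2rg and 0.929 for Il7r. These shifts follow from the scaling factors. The log2 fold of 7 of the 8 receptor genes kept its sign under each alternative that gave a value, and Il2rg changed sign when centred on transcript length. With the median coding transcript as length, 3 of 8 genes kept their rank after IL-33 and 5 after PBS. Il4ra, for which that length is only 491 bases, moved above Il2rb and Il21r in both libraries. Il9r and Il15ra also changed places after IL-33, where they did not differ beyond counting error, and after PBS both had 0 counts, so their ranks there carry no order. No paired analysis was possible because each treatment has 1 library.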
